A study of Mus musculus with 4 samples.

Results

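CXCR3 and its chemokine ligands are described here through 3 of the 32285 genes listed in the deposited matrices, Cxcl9 and Cxcl10, which encode ligands, and Cxcr3, which encodes their shared receptor. The genes were chosen by symbol and not by their values. Wildtype mice received injected tumor cells, and from day 3 onward one group was fed chow containing RGX-104, which activates the liver X receptors, while the other was fed control chow. On day 8 the lymph nodes that drain the tumor were digested, flow cytometry was used to isolate T cells together with antigen-presenting cells (APCs), and each chow gave 1 RNA library (10x 5' chemistry) and 1 T cell receptor library. The labels give no strain, age, sex, tumor line or number of mice per library. With 1 library per chow there is no replicate check and no test between chows: every interval below is a 95% interval for counting error only, and mice, pooling, sorting and library preparation cannot be told apart from the chow.

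CXCL9 and CXCL10 are small secreted proteins that bind CXCR3, a G protein-coupled receptor of activated type 1 helper and CD8 T cells, and guide such cells towards their source. Interferon gamma, made by T cells and NK cells, induces both ligands in myeloid cells through transcription factors that include IRF1, and CXCL10 is also induced by type I interferon and NF-kB. In lymph nodes, CXCR3 is known to place activated T cells near ligand-making dendritic cells, and its expression in T cells depends on the transcription factor T-bet (Tbx21). DPP4 is a surface protease that trims the ligands.

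On the GRCm38.p6 assembly, the one behind mm10, Cxcl9 (ENSMUSG00000029417) lies at chr5:92321331-92328079, Cxcl10 (ENSMUSG00000034855) at chr5:92346638-92348889 and Cxcr3 (ENSMUSG00000050232) at chrX:101731535-101734147. All 3 are protein coding and on the minus strand. The ligand genes are neighbours, with 18558 bases between Cxcl9 and Cxcl10. Cxcl11, the remaining ligand gene, follows 10654 bases beyond Cxcl10; RefSeq lists its mouse copy as a transcribed pseudogene, and it has no value here because the deposited gene list does not hold it. The 250 bases before the start of each ligand gene are printed because interferon and NF-kB are known to act on such promoters and both ligands were higher in the RGX-104 library. They come from RefSeq (GRCm38.p6), are read 5′ to 3′ on the minus strand, and span chr5:92328080-92328329 for Cxcl9 and chr5:92348890-92349139 for Cxcl10. Capitals mark matches to the motifs named in the next paragraph.
Cxcl9: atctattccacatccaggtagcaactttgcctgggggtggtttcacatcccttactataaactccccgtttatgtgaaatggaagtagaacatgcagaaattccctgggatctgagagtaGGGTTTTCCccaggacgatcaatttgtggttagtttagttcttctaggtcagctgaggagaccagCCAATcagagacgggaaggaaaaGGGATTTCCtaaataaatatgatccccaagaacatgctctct
Cxcl10: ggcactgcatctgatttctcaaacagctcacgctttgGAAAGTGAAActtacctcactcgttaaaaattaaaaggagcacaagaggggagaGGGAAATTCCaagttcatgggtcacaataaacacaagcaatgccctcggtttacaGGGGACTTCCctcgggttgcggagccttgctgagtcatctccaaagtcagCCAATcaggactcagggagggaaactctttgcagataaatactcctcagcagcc

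The motifs were searched on both strands. The interferon-stimulated response element, GAAA followed after any 2 bases by GAAA, matched Cxcl10 once, 213 bases before the start, and 2.98% of 32851 mouse promoters of this length hold such a match. The NF-kB motif, GGG followed after any 3 bases by TTCC, matched Cxcl10 at 159 and 104 bases before the start, and 4.65% of promoters hold it. Its 9-base form GGGNNTTCC matched Cxcl9 at 130 and 42 bases and Cxcl10 at 103 bases, the last inside the longer match, and 4.98% of promoters hold it. Each ligand gene had 1 CCAAT box, 65 bases before the start in Cxcl9 and 54 bases in Cxcl10, and 33.8% of promoters hold at least 1 such match. The longest run that the pair shares, cagccaatcag, is 11 bases long, includes that box, and is found in 131 of the 32851 promoters. The interferon gamma activated site TTCNNNGAA, held by 7.02% of promoters, and the T-box motif AGGTGTGA, held by 1.12%, had no match in the promoters of Cxcl9, Cxcl10 or Cxcr3, and none of the motifs matched that of Cxcr3.

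The RGX-104 library held 8671 barcodes with 38480769 unique molecular identifiers (UMIs) and the control library 7346 barcodes with 31530931 UMIs. The authors' annotation names 949 APCs (median 9043 UMIs) and 1995 T cells (median 5048) in the RGX-104 library, and in the control library 782 APCs (8051.5) and 2099 T cells (4944). The libraries share 95 barcode sequences, and leaving out the annotated cells that carry one kept each of the 19 ratios recomputed within its counting interval. Levels are given in CPM, from the UMIs of a gene over those of all genes, summed over the cells of 1 type in 1 library, and a gene is called higher or lower at a ratio of at least 1.5-fold. The type names are the authors', and their abbreviations (mcDC, rcDC, mLC, mono) are not spelled out. The 7 markers of cDC1, the dendritic cells that cross-present antigen, were all detected in rcDC1 (3770 CPM in RGX-104 and 3703 CPM in control cells when summed), and the 8 listed monocyte markers were all detected in mono (23268 and 19945 CPM). The cells named macrophages, 52 in the RGX-104 and 27 in the control library, had all 9 macrophage markers at 16846 and 8654 CPM. They also differed in depth, with medians of 11398 UMIs in RGX-104 and 4415 UMIs in control cells, and in the share of ribosomal protein transcripts, 10.3% and 24.3%, and they fall under the minimum of 50 cells per library set for a comparison.

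Both ligand transcripts were higher in RGX-104 APCs than in control APCs, and the receptor transcript was not called. Cxcl9 stood at 440 CPM in RGX-104 APCs and 177 CPM in control APCs, a ratio of 2.48 (2.33 to 2.64), from 4385 and 1297 UMIs. Cxcl10 stood at 137 and 38.3 CPM, for a ratio of 3.57 (3.14 to 4.07), from 1361 and 280 UMIs. Cxcr3 in APCs stood at 8.74 and 13.0 CPM, 1.49-fold lower (ratio 0.672, 0.497 to 0.909), from 87 and 95 UMIs. Of the 3 genes 2 were thus called higher, where 4.14% of all measured genes were called higher and 4.44% lower. In these pooled cells, the number of cells of a type and the RNA per cell both enter a ratio. The annotation names 52 RGX-104 and 27 control macrophages, and 9 and 53 pDC. The 9 macrophage markers, all detected in both libraries, summed to 1359 CPM in RGX-104 APCs and 475 CPM in control APCs. The 10 pDC markers summed to 489 and 1569 CPM. The 8 neutrophil markers, of which Ly6g and Retnlg were at 0, summed to 140 and 15.05 CPM. Of the UMIs in RGX-104 APCs, mcDC1 held 389 of 389 for Elane, 362 of 373 for S100a9 and 332 of 390 for S100a8. It held 119 of 120 for Mpo, 3 of 120 for Csf3r and 0 of 5 for Cxcr2. The same mcDC1 had 14 Cxcl9 and 9 Cxcl10 UMIs. The part of all these markers in the ratios of the 3 genes was not tested. Without the cells named macrophages and mono, a choice made after seeing the data, Cxcl9 stood at 264 and 190 CPM, for a ratio of 1.39 (1.30 to 1.49) that is no longer called. Cxcl10 stood there at 43.0 and 25.7 CPM, for a ratio of 1.67 (1.39 to 2.02), from 372 and 170 UMIs. A single RGX-104 rcDC1 cell held 100 of the 372, and the ratio without that cell was not computed for this set. With each of the 10 types given the same weight in both libraries, the ratio of Cxcl9 was 5.56. That setting includes types under the minimum of 50 cells, among them macrophages at 2283 CPM in the RGX-104 and 80.1 CPM in the control library.

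**Figure D1:**
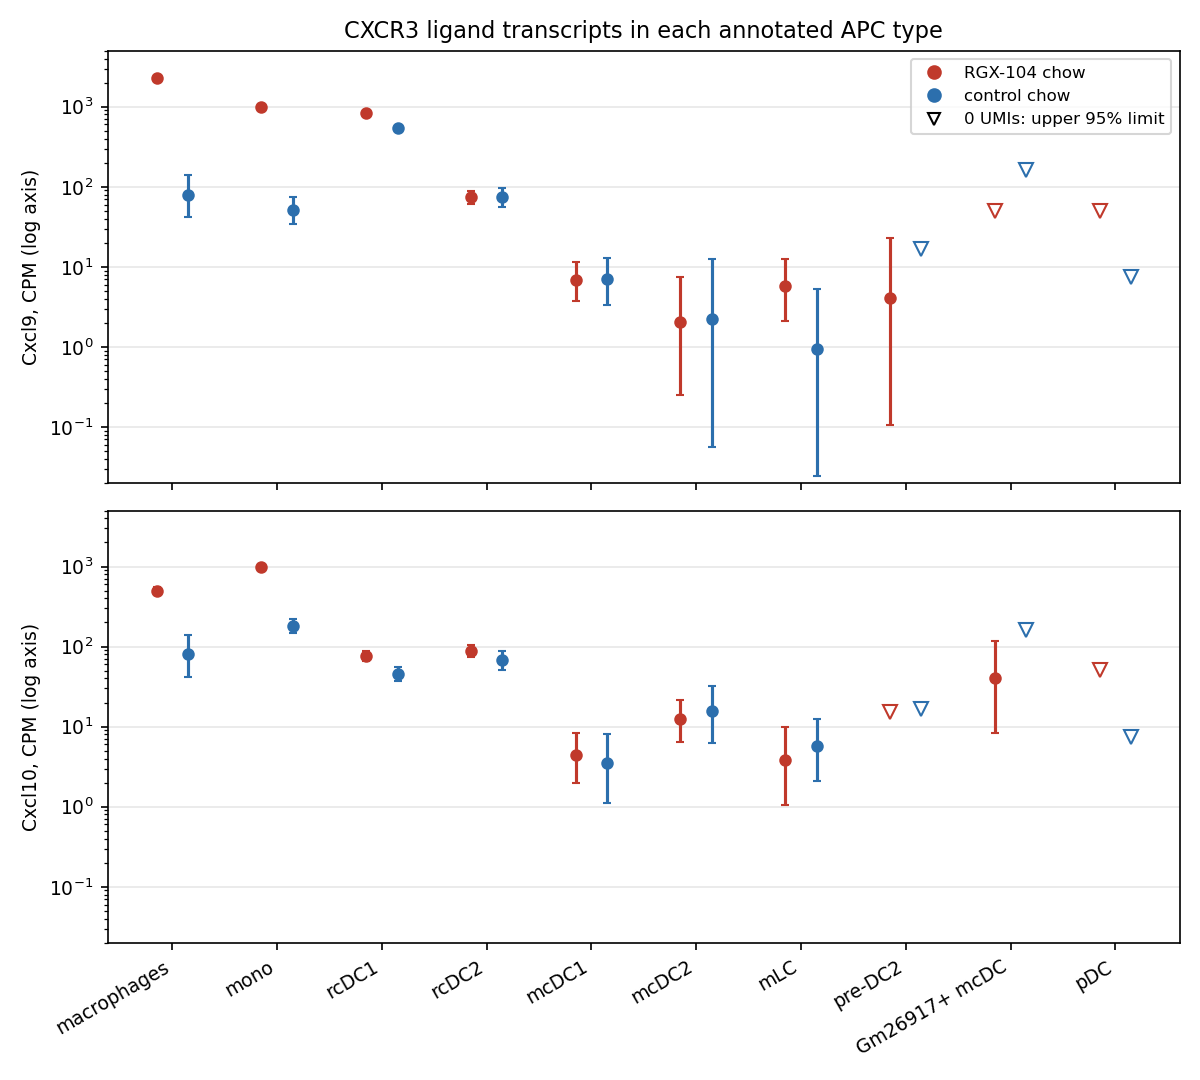
Level of Cxcl9 (top) and Cxcl10 (bottom) in CPM on a log axis in each of the 10 annotated APC types, RGX-104 in red left of control in blue. Bars are exact Poisson 95% intervals and open triangles the upper limits where 0 UMIs were found. Cxcl9 stood at 2283 and 80.1 CPM in macrophages and at 996 and 51.4 CPM in mono of the RGX-104 and control libraries, while rcDC2 had nearly the same level in both.

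Among the APC types compared, which leaves out macrophages, the largest ratio of Cxcl9 lay in mono. In mono (78 RGX-104 and 75 control cells) 679 UMIs were found in the RGX-104 library and 28 in the control library, a ratio of 19.4 (13.3 to 29.4). The control value rests on few cells: without the 1 cell with most Cxcl9 UMIs in each library the ratio was 76, and without cells that carry transcripts of another lineage it was 75.7. In mono 48.7% of RGX-104 cells and 5.33% of control cells had a Cxcl9 UMI, and 36.5% and 3.50% did so after each cell was thinned to 2000 UMIs, with 4 and 2 shallower cells left out. T cells, which should lack the ligand, had a share of 0.952% in the RGX-104 and 0.333% in the control library at the median depths above.

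The cells named macrophages gave 2283 CPM of Cxcl9 in the RGX-104 library (1419 UMIs) and 80.1 CPM in the control library (12 UMIs). Of the 52 RGX-104 macrophages 39 had a Cxcl9 UMI (75.0%, 61.1 to 86.0), with a median of 14 and a highest count of 256 UMIs among positive cells, and of the 27 control macrophages 4 had one (14.8%, 4.19 to 33.7). Thinned, the shares were 58.7% and 8.55%. The part of the differences in depth and ribosomal share given above was not tested.

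In rcDC1 (138 RGX-104 and 135 control cells), Cxcl9 was present in most cells of both libraries. The level was 835 CPM in RGX-104 rcDC1 and 541 CPM in control rcDC1, from 2142 and 1189 UMIs, a ratio of 1.54 (1.44 to 1.66). The share of cells with a UMI was 72.5% (64.2 to 79.7) and 65.2% (56.5 to 73.2), intervals that overlap, and 46.5% and 35.6% after thinning. Positive cells had a median of 9 UMIs in the RGX-104 and 5 in the control library. The ratio lies just over the line for a call, and it was 1.25 as a mean of per-cell CPM, under that line. The same mean over only the cells deep enough to be thinned was 1.31, also under the line, and is not a separate check. In rcDC2 (167 and 87 cells) Cxcl9 stood at 74.4 and 74.2 CPM, for a ratio of 1.0 (0.725 to 1.40). The types mcDC1, mcDC2 and mLC together (452 and 369 cells) had 5.42 and 4.10 CPM, from 22 and 12 UMIs, and pDC had 0 UMIs in 9 and 53 cells, which with 3 counts as the floor allows a share of up to 33.3% and 5.66% of cells with a UMI.

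By level, the types stood in the following order. In the RGX-104 library Cxcl9 was ordered macrophages, mono, rcDC1, rcDC2 and then mcDC1, with no overlap between the intervals of neighbours. In the control library rcDC1 stood first, and macrophages, rcDC2 and mono followed with overlapping intervals. By UMIs, RGX-104 rcDC1 held 48.8% of the Cxcl9 of all APCs, macrophages 32.4%, mono 15.5% and rcDC2 2.78%, where these types made up 14.5%, 5.48%, 8.22% and 17.6% of the APCs. Control rcDC1 held 91.7%, rcDC2 4.32%, mono 2.16% and macrophages 0.925%, at 17.3%, 11.1%, 9.59% and 3.45% of the APCs.

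**Figure D2:**
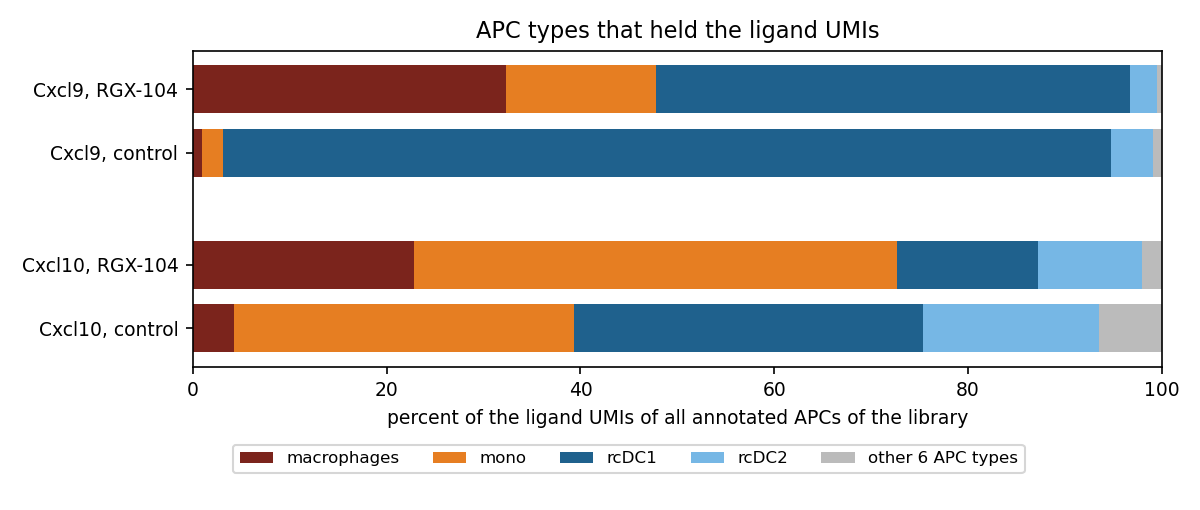
Percent of the Cxcl9 and Cxcl10 UMIs of all annotated APCs that each APC type held, with the RGX-104 library above the control library for each ligand. Of Cxcl9, rcDC1 held 48.8% in the RGX-104 and 91.7% in the control library; of Cxcl10, macrophages and mono held 22.9% and 49.8% in the RGX-104 and 4.29% and 35% in the control library.

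Cxcl10 was highest in mono among the APCs of both libraries. It stood at 994 CPM in RGX-104 mono and 180 CPM in control mono, from 678 and 98 UMIs, a ratio of 5.52 (4.46 to 6.90). In mono, both ligands were thus called higher, where 7.8% of all measured genes were called higher and 10.0% lower. The share of mono with a Cxcl10 UMI was 43.6% (32.4 to 55.3) in the RGX-104 and 16.0% (8.55 to 26.3) in the control library, and 31.4% and 9.41% after thinning. Among positive mono the median was 10 UMIs with a highest count of 93 in RGX-104 cells, and 2.5 with a highest count of 47 in control cells. That 1 control cell held 48.0% of the control UMIs, and without the top cell of each library the ratio was 9.16.

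The other APC types had lower Cxcl10 levels. Macrophages stood at 500 CPM in the RGX-104 library (311 UMIs, 36.5% of cells) and 80.1 CPM in the control library (12 UMIs, 11.1% of cells). In rcDC1 Cxcl10 stood at 77.2 CPM in RGX-104 and 45.9 CPM in control cells, from 198 and 101 UMIs, a ratio of 1.68 (1.32 to 2.16). In rcDC1, both ligands were called higher, where 4.2% of all measured genes were called higher and 3.45% lower. A single RGX-104 cell held 50.5% of those Cxcl10 UMIs, and without the top cell of each library the ratio was 1.11. As a mean of per-cell CPM over the cells deep enough to be thinned, top cells included, the ratio was 2.64. The share of positive cells was 14.5% and 14.8%. In rcDC2 the level was 89.0 and 67.6 CPM, for a ratio of 1.32 (0.951 to 1.85). The ratio was 0.938 without cells that carry transcripts of another lineage. As a mean of per-cell CPM it was 0.855, and 0.851 over only the cells deep enough to be thinned. In rcDC2 neither ligand was called, where 6.77% of all measured genes were called higher and 3.98% lower. The pooled mcDC1, mcDC2 and mLC had 6.16 and 6.14 CPM, with 3.54% and 4.07% of cells positive. By UMIs, mono held 49.8% of RGX-104 and 35% of control Cxcl10 among APCs, macrophages 22.9% and 4.29%, rcDC1 14.5% and 36.1%, and rcDC2 10.7% and 18.2%.

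The ligands were found together in some single cells, to a different degree in each type and library. In RGX-104 macrophages, all 19 cells with Cxcl10 also had Cxcl9, and 20 had Cxcl9 alone, while in control macrophages 0 of 27 cells had both. In mono, 23 of 78 RGX-104 cells (29.5%, 19.7 to 40.9) and 1 of 75 control cells (1.33%, 0.0338 to 7.21) had both, and 20.3% and 0.164% did so after thinning. Of the 34 RGX-104 and 12 control mono with Cxcl10, 67.6% and 8.33% also had Cxcl9. Of the mono without Cxcl10, 34.1% and 4.76% had Cxcl9. In rcDC1, 20 of 138 RGX-104 cells and 18 of 135 control cells had both (14.5% and 13.3%). All 20 of the RGX-104 and 18 of the 20 control rcDC1 with Cxcl10 also carried Cxcl9, and of the rcDC1 without Cxcl10, 67.8% and 60.9% carried Cxcl9. Macrophages with Cxcl10 were deeper than those without, with medians of 17345 and 6751 UMIs in the RGX-104 library.

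**Figure D3:**
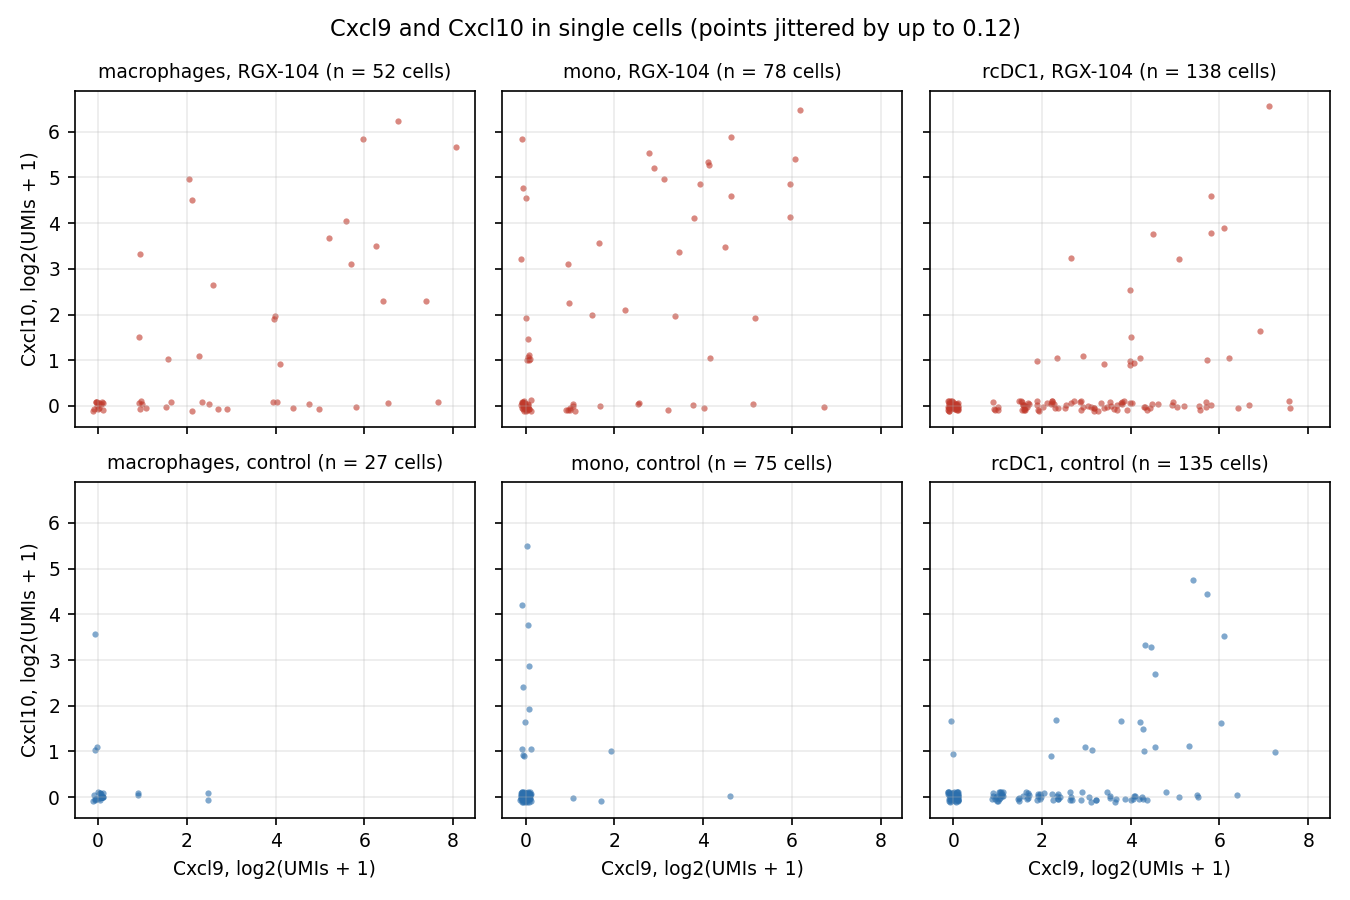
Each point is 1 cell, with log2(Cxcl9 UMIs + 1) on the x axis and log2(Cxcl10 UMIs + 1) on the y axis, for macrophages, mono and rcDC1, RGX-104 cells in the top row and control cells in the bottom row. Cells with both ligands were 19 of 52 macrophages, 23 of 78 mono and 20 of 138 rcDC1 in the RGX-104 library, and 0 of 27, 1 of 75 and 18 of 135 in the control library.

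Within RGX-104 mono, the cells with Cxcl9 carried more transcripts of other genes that interferon gamma induces. The 38 positive cells (median 8892 UMIs) were set beside the 40 negative cells (7910.5 UMIs) of the same library, which compares cells of 1 library and is no test. Of 28 listed genes 19 were measured (at least 50 UMIs), and 18 of these were at least 1.5-fold higher in the positive cells while 0 were lower, and the median log2 ratio was 1.59. Over all 1901 measured genes 11.3% were higher and 14.0% lower, and their median was -0.04. Irf1, a transcription factor of the interferon response, stood at 413 CPM in positive and 221 CPM in negative cells, for a ratio of 1.87 (1.39 to 2.53). Iigp1, an interferon-induced GTPase that attacks the vacuoles of intracellular parasites, had 138 and 1 UMIs, a ratio of 105 (18.5 to 4163). Cxcl10 stood at 1439 and 408 CPM, for a ratio of 3.53 (2.89 to 4.33). The listed gene that was not called was Cd274, which encodes PD-L1, at 1.02, and Ifngr1, the interferon gamma receptor chain, was lower in positive cells at a ratio of 0.586 (0.471 to 0.729). Cd274 and Ifngr1 were named with their values known. In control mono, with 4 positive and 71 negative cells, 4 of 11 measured genes were higher and 1 lower, beside 15.5% higher and 28.2% lower over all measured genes. The lower gene was Irf1, with 2 UMIs in positive and 52 UMIs in negative cells, a ratio of 0.424 (0.0500 to 1.61). Abca1, a cholesterol exporter induced by the liver X receptors and named after its value was seen, stood at 196 and 190 CPM in RGX-104 mono, for a ratio of 1.03. In the same RGX-104 positive and negative cells the cDC1 markers summed to 606 and 330 CPM, the monocyte markers to 24158 and 22094 CPM and the macrophage markers to 1532 and 2605 CPM; their part in these differences was not tested.

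In rcDC1, Cxcl9-positive and Cxcl9-negative cells were set side by side in the same way, and the difference from mono was not tested. Of 13 measured genes induced by interferon gamma 5 were higher in the 100 positive than in the 38 negative RGX-104 cells, and of 10 measured genes 3 were higher in the 88 positive than in the 47 negative control cells, with 0 lower in either. The medians were 0.39 and 0.36 on the log2 scale, beside -0.18 and -0.11 over all measured genes, of which 7.92% and 6.4% were higher and 17.9% and 13.0% lower. Il12b, a subunit of interleukin 12, stood at 109 CPM in positive and 11.2 CPM in negative RGX-104 cells, a ratio of 9.73 (4.399 to 26.8), and at 133 and 6.34 CPM in control cells, a ratio of 20.9 (8.05 to 77.5). Serpina3g, a serine protease inhibitor, had ratios of 6.36 and 7.40. Both were named after their values were seen. Positive cells were deeper, with medians of 20093 UMIs against 13982.5 UMIs in negative cells of the RGX-104 library, and 18993 against 13803 UMIs in the control library, and the part of depth was not tested.

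Transcripts of Cxcl10 were found in T cells as well as in APCs. Of the Cxcl10 UMIs of all annotated cells, T cells held 21.6% in the RGX-104 and 62.2% in the control library, while of the Cxcl9 UMIs they held 0.477% and 0.537%. The T cells made up 67.8% and 72.9% of the annotated cells and held 53.2% and 61.1% of the UMIs of all genes. Of all genes measured over all T cells 2.92% were called higher and 1.66% lower. There Cxcl10 stood at 33.1 CPM in the RGX-104 and 40.1 CPM in the control library (375 and 460 UMIs), a ratio of 0.826 (0.719 to 0.949) that is not called. The share of T cells with a UMI was 5.11% and 5.15%.

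The ratios of single T cell types lay on both sides of 1, and the difference between types was not tested. In Treg, the regulatory T cells (79 RGX-104 and 97 control cells), Cxcl10 stood at 113 and 244 CPM, 2.15-fold lower in RGX-104 cells (ratio 0.466, 0.341 to 0.630), from 61 and 156 UMIs. In Tfh, the follicular helper T cells (84 and 126 cells), it stood at 57.3 and 113 CPM, 1.97-fold lower (ratio 0.509, 0.327 to 0.774), from 32 and 82 UMIs. Of all measured genes 4.59% were called higher and 7.51% lower in Treg, and 4.3% and 5.43% in Tfh. The shares of positive cells were 20.3% (12.04 to 30.8) and 27.8% (19.2 to 37.9) in Treg and 11.9% (5.86 to 20.8) and 16.7% (10.6 to 24.3) in Tfh, and the intervals of the libraries overlap in each type. In CD8_03 the ratio was 1.43 (0.854 to 2.43) and in CD8_01 1.24 (0.718 to 2.14). The gd T cells stood at 391 and 185 CPM (37 and 65 cells) and IFN-responsive T cells at 105 and 280 CPM (70 and 39 cells), with 65.2% of the control UMIs of the first and 87.9% of the control UMIs of the second type in 1 cell each. Both have under 50 cells in a library and were not compared.

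Markers of APCs were measured in the same T cells. No Treg or Tfh cell of either library had both ligands. In Treg the 9 macrophage markers summed to 29.9 CPM in Cxcl10-positive and 18.9 CPM in Cxcl10-negative RGX-104 cells, and to 22 and 12.1 CPM in control cells, beside 10 T cell markers at 5053 and 6025 CPM and at 5946 and 6283 CPM. In Tfh the macrophage markers summed to 0 CPM in positive and 21.3 CPM in negative RGX-104 cells, and to 45.9 and 68.7 CPM in control cells. In gd T cells of the RGX-104 library they summed to 391 CPM in Cxcl10-positive and 34.3 CPM in negative cells, and their part in the level of that type was not tested.

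Of the Cxcr3 UMIs of annotated cells, T cells held 81.9% (78.1 to 85.2) in the RGX-104 and 74.6% (69.9 to 78.9) in the control library, where they made up 67.8% and 72.9% of the cells and held 53.2% and 61.1% of the UMIs of all genes. Over all T cells Cxcr3 stood at 34.7 CPM in the RGX-104 and 24.3 CPM in the control library, from 393 and 279 UMIs. The ratio was 1.43 (1.22 to 1.67), under the line for a call. Over the recomputed settings it ran from 1.24 to 1.54. The highest, over the line, was that without cells that carry transcripts of another lineage. Cytotoxic T made up 2.21% of RGX-104 and 0.762% of control T cells, and the part of this in the ratio was not tested. A Cxcr3 UMI was found in 10.9% (9.54 to 12.3) of RGX-104 T cells and 8.00% (6.88 to 9.25) of control T cells, and in 4.54% and 3.32% after thinning. The pooled mcDC1, mcDC2 and mLC, which should lack the receptor, had it in 0.221% and 0.271% of cells at median depths of 8150 and 7400 UMIs.

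By type, Cxcr3 marked cytotoxic, regulatory, follicular helper and CD8_03 T cells. The cells named Cytotoxic T (44 RGX-104 and 16 control cells) had 141 and 146 CPM and a UMI in 63.6% and 75.0% of cells. Those whose clonotype occurred once (24 and 14 cells) were deep, with medians of 12055 and 13780 UMIs. Their share was 79.2% and 85.7%, and 23.8% and 27.8% after thinning. Treg had 128 and 82.8 CPM, for a ratio of 1.55 (1.07 to 2.26), from 69 and 53 UMIs, with a UMI in 35.4% (25 to 47.01) and 23.7% (15.7 to 33.4) of cells. Treg is thus called higher. Tfh had 104 and 85.2 CPM, for a ratio of 1.22 (0.838 to 1.77), with a UMI in 39.3% and 26.2% of cells. CD8_03 (182 and 176 cells) had 73.8 and 68.2 CPM, for a ratio of 1.08 (0.792 to 1.48), with a UMI in 35.7% and 34.1% of cells. Neither Cxcl10 nor Cxcr3 was called in CD8_03, where 4.59% of all measured genes were called higher and 3.56% lower. After thinning, the shares were 19.9% and 11.9% in Treg, 19.3% and 14.3% in Tfh and 13.4% and 13.1% in CD8_03. These 4 types stood first in both libraries, with overlapping intervals between neighbours.

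In the larger CD8 types the receptor was less frequent. CD8_01 (408 and 464 cells) had 21.95 CPM in RGX-104 and 11.49 CPM in control cells, from 53 and 31 UMIs, a ratio of 1.91 (1.2 to 3.08), with a UMI in 8.33% (5.84 to 11.45) and 5.39% (3.52 to 7.85) of cells. It is called higher, where 3.63% of all measured genes were called higher and 2.94% lower, and 1 RGX-104 cell held 22.6% of its UMIs. In the same CD8_01 cells the 5 erythroid markers summed to 0.414 CPM in the RGX-104 library, where 1 of them was detected, and to 509 CPM in the control library, and their part in this ratio was not tested. CD8_02 had 13 and 6 UMIs, 7.38 and 3.46 CPM. In the 3 CD8 types together the level was 29.3 and 20.6 CPM, for a ratio of 1.42 (1.11 to 1.82).

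The cells named Th1_01, Th1_02 and Th1_03 had almost no Cxcr3. Of 685 RGX-104 cells 4 had a UMI (0.584%) and of 738 control cells 1 (0.136%). Tbx21, the type 1 master regulator, had 0 and 1 UMIs in them, and Ifng 2 and 1. The data therefore do not show the defining genes of type 1 helper T cells in the cells that carry that name.

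**Figure D4:**
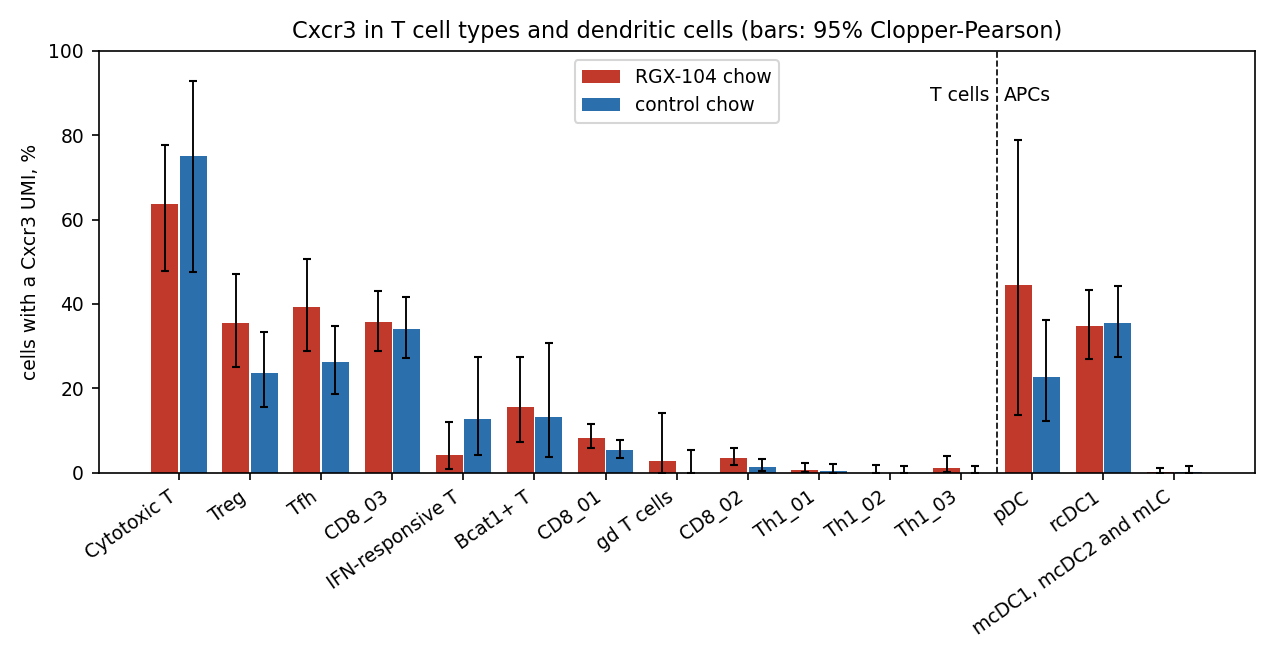
Percent of cells with at least 1 Cxcr3 UMI in each T cell type and in 3 sets of dendritic cells, RGX-104 in red left of control in blue, with Clopper-Pearson 95% intervals. Treg stood at 35.4% and 23.7%, CD8_03 at 35.7% and 34.1%, rcDC1 at 34.8% and 35.6%, and the pooled mcDC1, mcDC2 and mLC at 0.221% and 0.271% in the RGX-104 and control libraries.

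Among APCs, Cxcr3 was a transcript of rcDC1 and pDC, and rcDC1 held 88.5% of the Cxcr3 UMIs of RGX-104 APCs and 77.9% of those of control APCs. In rcDC1 the level was 30.02 CPM in the RGX-104 and 33.7 CPM in the control library (77 and 74 UMIs), a ratio of 0.892 (0.640 to 1.24), with a UMI in 34.8% and 35.6% of cells and in 5.25% and 6.44% after thinning. In pDC 4 of 9 RGX-104 and 12 of 53 control cells had a UMI, and pDC held 6.90% and 18.9% of APC Cxcr3 UMIs. The 10 T cell markers summed to 18.9 CPM in Cxcr3-positive and 78.9 CPM in Cxcr3-negative rcDC1 of the RGX-104 library, and to 48.5 and 52.0 CPM in the control library. The 7 cDC1 markers summed to 4199 and 3469 CPM and to 3890 and 3561 CPM. Receptor and ligand occurred in the same rcDC1: of Cxcr3-positive cells 75.0% (60.4 to 86.4) had Cxcl9 in the RGX-104 and 70.8% (55.9 to 83.0) in the control library, beside 71.1% and 62.1% of Cxcr3-negative cells.

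Cxcr3-positive and Cxcr3-negative cells were also set side by side within T cell types, which is no test. In Treg, 3 of 9 measured genes of the type 1 program were higher and 1 lower in the 28 positive than in the 51 negative RGX-104 cells, beside 9.87% higher and 6.52% lower over all measured genes. In control Treg (23 positive and 74 negative cells) 5 of 8 were higher and 1 lower, beside 10.3% and 8.99%. Gzmb, granzyme B, stood at 885 CPM in positive and 97.0 CPM in negative RGX-104 Treg, a ratio of 9.12 (6.22 to 13.8), and at 416 and 144 CPM in control Treg, a ratio of 2.90 (2.06 to 4.09). Ccr2, a receptor for monocyte chemokines, had ratios of 4.27 (2.62 to 7.18) and 2.35 (1.48 to 3.73). Bhlhe40, a transcription factor of effector T cells, was lower in positive Treg of both libraries, with ratios of 0.496 and 0.299.

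In Tfh, 5 of 8 measured genes of the program were higher and 2 lower in positive RGX-104 cells, beside 4.64% higher and 7.93% lower over all measured genes, and 5 of 11 were higher and 1 lower in control cells, beside 8.23% and 7.31%. Ccl5, a chemokine of effector T cells, had ratios of 5.25 and 3.66, Nkg7, a protein of cytotoxic granules, 3.38 and 6.20, and Ly6c2, a surface protein of memory T cells, 6.54 and 7.66. In CD8_01, 7 of 13 were higher and 1 lower in the RGX-104 and 6 of 12 were higher in the control library, beside 11.1% and 10.8% called higher and 13.7% and 18.1% called lower over all measured genes. In CD8_03, 0 of 16 and 0 of 13 were higher, beside 4.16% and 3.0%, and 1 and 0 were lower, beside 6.12% and 6.07%. The genes given here for Treg and Tfh were named after their values were seen. Positive cells were deeper than negative cells in Treg, with medians of 6216.5 and 4989 UMIs in the RGX-104 and 7193 and 4212.5 UMIs in the control library.

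Cxcr3 was also set beside clonal expansion, as the authors' clonal frequency. Of RGX-104 T cells whose clonotype occurred at least 2 times 8.39% (5.95 to 11.43) had Cxcr3, against 12.5% (10.7 to 14.4) of those whose clonotype occurred once. In the control library the shares were 8.16% (5.30 to 11.9) and 8.51% (7.16 to 10.0). In the 3 CD8 types together they were 8.37% and 13.7% in the RGX-104 library and 11.3% and 8.91% in the control library. The intervals of expanded and single cells overlapped in each of these pairs. Such overlap does not show that the shares are equal, and the differences were not tested. After thinning, the shares over all T cells were 3.82% and 4.99% in the RGX-104 and 3.81% and 3.26% in the control library. The thinned CD8 shares were 3.20% and 5.13% in RGX-104 cells and 4.36% and 2.89% in control cells.

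Ifng, which encodes the main inducer of the ligands, was higher in RGX-104 T cells. It stood at 24.3 CPM in the RGX-104 and 5.06 CPM in the control library, from 275 UMIs in 57 cells and 58 UMIs in 32 cells, a ratio of 4.81 (3.61 to 6.49). A single RGX-104 cell, named CD8_01, held 29.1% of the UMIs, and without the top cell of each library, a choice made after seeing the data, the ratio was 4.04. Ifng stood at 215 and 17.1 CPM in Cytotoxic T, 60.9 and 33.0 CPM in Tfh, 42.8 and 6.25 CPM in Treg and 8.72 and 13.1 CPM in CD8_03. Cytotoxic T has under 50 cells in each library and was not compared. It made up 2.21% of RGX-104 and 0.762% of control T cells, and the part of this in the ratio over all T cells was not tested. The cells with Ifng often also carried Cxcr3: 30 of 57 RGX-104 cells (52.6%, 39.0 to 66.0) and 13 of 32 control cells (40.6%, 23.7 to 59.4) with Ifng also had Cxcr3, beside 9.65% and 7.50% of cells without Ifng. After thinning these shares were 22.5% and 17.6% with Ifng, and 4.004% and 3.10% without. Tbx21 had 7.60 and 6.19 CPM over all T cells, a ratio of 1.23 (0.886 to 1.71).

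Some of the genes that interferon gamma induces, the ligands left out, were higher in APCs of the RGX-104 library. Of 28 listed genes 27 were measured in all APCs, and 13 were higher while 0 were lower, beside 4.14% higher and 4.44% lower over all measured genes. Their median log2 ratio was 0.53 beside -0.06 over all measured genes. Nos2, the inducible nitric oxide synthase, stood at 16.0 CPM (159 UMIs) in RGX-104 APCs and had 0 UMIs in control APCs, which with 3 counts over the group as the floor is at least 38.9-fold higher, and 144 of its UMIs lay in 15 macrophages. Iigp1 stood at 45.3 and 3.28 CPM, for a ratio of 13.8 (9.15 to 21.8). The lowest ratios belonged to Psmb9 at 0.831 and Psmb8 at 0.932, subunits of the immunoproteasome. Without macrophages 7 of 26 measured genes were higher and 0 lower, beside 3.14% higher and 4.56% lower over all genes, with a median of 0.33.

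In mono 16 of 21 measured genes of this list were higher while 0 were lower, beside 7.8% higher and 10.0% lower over all genes, and the median was 1.29 beside -0.05. In rcDC1 6 of 16 were higher and 0 lower, beside 4.2% and 3.45%, and the median was 0.35 beside -0.03. In rcDC2 2 of 15 were higher and 0 lower, beside 6.77% and 3.98%. In all T cells 6 of 24 were higher while 0 were lower, beside 2.92% and 1.66%, and the median was 0.46 beside -0.01. Differences between types were not tested, and macrophages were not compared because of their cell number. The highest ratios in T cells were those of Iigp1 at 3.01 and Serpina3g at 2.58, and the lowest those of Psmb10 at 0.925 and Wars at 0.952. Irf1 belongs to this list as well as to the list of interferon sensing genes. It stood at 330 CPM in RGX-104 mono and 99.2 CPM in control mono, for a ratio of 3.33 (2.46 to 4.56), and had ratios of 1.46 in rcDC1 and 1.12 in all T cells.

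**Figure D5:**
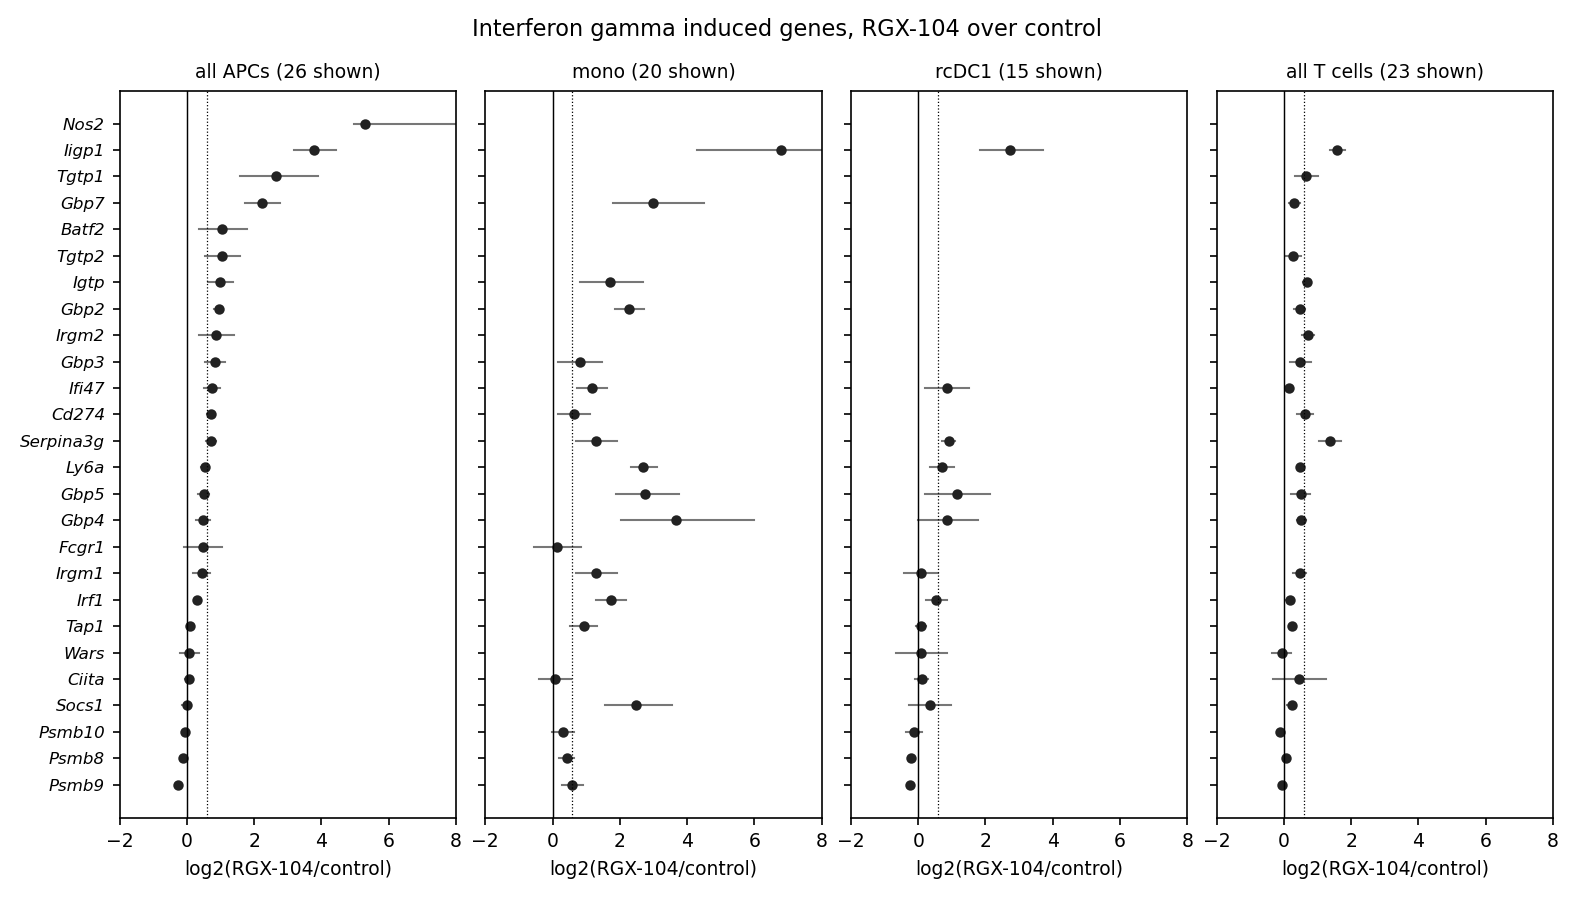
Log2 ratio of RGX-104 over control CPM for measured genes of the interferon gamma list, in all APCs, mono, rcDC1 and all T cells, with 95% counting intervals; the solid line is no difference and the dotted line 1.5-fold. The point of Nos2 is its bound with 3 counts taken as the control value. Over the whole list 13 of 27, 16 of 21, 6 of 16 and 6 of 24 measured genes were at or beyond the dotted line; 1 of the genes is not drawn.

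The genes that sense interferon were nearly level. Of 21 genes of receptors, kinases, transcription factors and their inhibitors 0 were higher and 0 lower in all APCs, with a median of 0.01. Over all measured genes 4.14% were higher and 4.44% lower there, with a median of -0.06. Irf1 had a ratio of 1.24, and the lowest ratios were those of Irf8 at 0.796 and Irf9 at 0.824. In all T cells 0 of 21 were called either way (median 0.07), beside 2.92% higher and 1.66% lower over all measured genes. A count of 0 of 21 is close to these shares. The ratios ran from Stat2 at 1.43 and Usp18 at 1.33 to Ptpn2 at 0.849 and Irf7 at 0.884. The same shares over all genes stand beside the counts of cytokines that follow. Of 12 cytokines that can induce the ligands 7 were measured in APCs, with 2 higher, Il1b at 1.61 and Il12b at 1.51, and 1 lower, Il12a at 0.251, followed by Il27 at 0.985. In T cells 2 of 4 were higher, Ifng and Il1b at 2.76, beside Tnf at 0.792 and Lta at 0.889. Dpp4 stood at 87.8 and 95.4 CPM in APCs, a ratio of 0.921, and at 47.4 and 45.1 CPM in T cells, a ratio of 1.05.

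The type 1 program, the genes that accompany CXCR3 on effector T cells, was partly higher in T cells. Of 25 measured genes 8 were higher while 0 were lower, beside 2.92% higher and 1.66% lower over all genes, and the median was 0.32 beside -0.01. They included Ifng, Ccl4 at 4.05, Gzmk at 3.26, Ccl3 at 2.53, Il12rb2 at 2.03, Ccl5 at 1.86 and Gzmb at 1.57, and the lowest ratios were those of Cxcr6 at 0.720 and Ccr2 at 0.835. Gzmk, Il12rb2, Ccl5 and Gzmb were named with their values known. Of the Ccl4 UMIs 1 cell held 32.8% in the RGX-104 and 1 cell 33.3% in the control library. In Treg 4 of 13 measured genes were higher and 0 lower, beside 4.59% and 7.51% over all genes. In APCs 3 of 15 were higher and 0 lower, beside 4.14% and 4.44%, with the highest ratios for Ccl3 at 2.99 and Nkg7 at 2.31 and the lowest for Ly6c2 at 0.675 and Ccr2 at 0.796.

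Other chemokines and receptors gave a frame for the 3 genes. Over all genes 4.14% were higher and 4.44% lower in APCs, with a median of -0.06, and 2.92% and 1.66% in T cells, with a median of -0.01. Of 15 measured chemokines in APCs 6 were higher while 0 were lower, and the median was 0.53. Cxcl13, the B cell chemokine, had a ratio of 6.71 with 90.5% of its RGX-104 UMIs in 1 cell, Ccl8 one of 5.86, and the monocyte chemokines Ccl2 and Ccl12 the lowest at 0.743 and 0.746. In T cells 5 of 7 chemokines were higher and 2 lower, from Ccl4 and Ccl3 to Ccl1 at 0.0163, where 1 control cell held 92.5% of the UMIs, and Cxcl2 at 0.480. Of 12 measured receptors in APCs 2 were higher, Ccrl2 at 1.95 and Ccr1 at 1.70, and 1 lower, Ccr9, a receptor of pDC, at 0.325, followed by Ccr6 at 0.700. In T cells 1 of 12 was higher, a gene not named here, and 4 were lower. The lowest were Ccr10 at 0.518 and Ccr6 at 0.539, and the median was -0.29. Cxcr5, with a ratio of 1.25, was not called. Ccl3, Ccl4 and Ccl5 stand in both the type 1 and the chemokine lists, as Ccr2 and Cxcr6 do in the type 1 and receptor lists.

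The genes whose pattern over types was most like each member were found by Pearson correlation of log2(CPM + 10), with each type and library as 1 point, so that all points of a library share its depth and makeup. Over 16 points from 8 APC types and 6939 genes, Cxcl9 was followed most closely by Evl (r = 0.916), Ppt2 (0.902), Slamf8 (0.899), Fnip2 (0.887) and Mospd2 (0.885), and Cxcl10 held place 8 (0.857). Cxcl10 was followed by Tgfbi (0.937), Man2a1 (0.909), Dgkz (0.906), Soat1 (0.8995) and Pacsin2 (0.890), and Cxcl9 held place 16. Over 22 points from 11 T cell types and 7363 genes, Cxcr3 was followed by Ttc39b (0.888), Tigit (0.883), an inhibitory receptor of T cells, Hopx (0.872), Cldnd1 (0.851) and Pglyrp1 (0.848). Among T cell types Cxcl10 held place 570 by likeness to Cxcr3 (0.519).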

How the data were processed

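RNA was measured with 10x 5' libraries, 1 per chow. Each deposited matrix gives the UMI count of every gene in every barcode. The aligner and counter was Cell Ranger 5.0.0, per the file headers, and the build mm10, per the submitters' processing notes. The authors' annotation tables, with Seurat 5.0.3 per the submitters' processing notes, give each cell its type name, library, clonal frequency, count totals and mitochondrial percent, as deposited. They hold no barcodes here, so cells were joined to barcodes by their total, number of detected genes (genes in at least 3 barcodes) and mitochondrial percent, and each matched 1 barcode. The annotated cells all show 801 or more genes and less than 5% of UMIs from mitochondria, and the authors' table names all as singlets.

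Counts were summed per type and library and divided by all UMIs of those cells. Intervals at 95% are exact Poisson for levels, Clopper-Pearson for shares and conditional binomial for ratios. A ratio was computed for genes with at least 50 UMIs over both sets, types were compared with at least 50 cells in each library, and the floor was 3 counts. Ratios and intervals were tested on simulated data. Python 3.11.15 (numpy 2.4.6, scipy 1.17.1, pandas 2.3.3, scanpy 1.11.5 for Scrublet) and R 4.3.3 with edgeR 4.0.16 for TMM factors were used. Genes and lists were chosen with earlier results of these data known. The text names the 3 genes and Cxcl11, in each list the genes with the 2 highest and 2 lowest ratios in all APCs and all T cells, Ifng, Tbx21, Irf1 and Dpp4, and the 5 genes most like each member. Other genes, among them Gzmk, Il12rb2, Ccl5, Gzmb, Cd274 and Ifngr1, stand outside this rule and were named with their values known. Some results under this rule are not reported here. The contig tables of the T cell receptor libraries were not used here.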

Additional observations from a re-analysis of the deposited data

Results flagged for a closer look

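Ligand transcripts were also present in the barcodes that the authors left without annotation, 5727 in the RGX-104 and 4465 in the control library, which no comparison above uses. Cxcl9 had 1117 UMIs in the RGX-104 and 145 UMIs in the control library there, 64.9 and 11.37 CPM, with a ratio of 5.71 (4.80 to 6.84). Barcodes with at least 3 macrophage or monocyte markers held 77.0% of these UMIs in the RGX-104 and 44.1% in the control library, and barcodes with at least 3 cDC1 markers, held 50.6% and 53.1%. Barcodes with at least 3 T cell markers held 56.6% and 35.2%. These sets overlap, since a barcode can carry markers of several lineages. Cxcl10 had 1041 and 499 UMIs, 60.5 and 39.1 CPM, with a ratio of 1.55 (1.39 to 1.72). Of these, barcodes with at least 3 macrophage or monocyte markers held 56.2% and 28.3%, and those with at least 3 T cell markers 64.8% and 76.8%.

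Cxcl10 differed in direction between cell types. The ratio of RGX-104 over control was 5.52 in mono and 1.68 in rcDC1, with intervals wholly above 1, and 0.466 in Treg and 0.509 in Tfh, with intervals wholly below 1. In rcDC1 1 RGX-104 cell held 50.5% of the Cxcl10 UMIs, and without the top cell of each library the ratio was 1.11. With 1 library per chow the difference between these types was not tested.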

How the results depend on the processing

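Of 184 recomputed ratios of the 3 genes and Ifng, 161 lay within the counting interval of the value reported, 23 lay outside it, and 0 called ratios changed direction. These ratios count the mean of per-cell CPM over all cells and the same mean over the deeper cells, those deep enough to be thinned. The 2 means are close to the same check, and the counts of a ratio were not themselves thinned. Over all APCs the ratio of Cxcl9 was 5.56 with the same weight for each type, macrophages included, 1.77 without macrophages, 2.13 without mono and 1.39 without both. The ratio of Cxcl10 was 4.32, 3.01, 2.74 and 1.67 under these settings, and 3.00 as a per-cell mean over the deeper cells. The value of 1.67 includes 1 RGX-104 rcDC1 cell with 100 of the 372 RGX-104 UMIs. In mono, Cxcl9 was at 75.7 without cells with transcripts of another lineage and at 76 without the top cell of each library. Cxcl10 in mono was at 4.29 as a per-cell mean over the deeper cells and 9.16 without the top cells. In rcDC1, as a mean of per-cell CPM over all cells and over the deeper cells, Cxcl9 was at 1.25 and 1.31, and Cxcl10 at 2.40 and 2.64. Cxcl10 in rcDC1 was at 2.19 without other-lineage cells and 1.11 without the top cells. In rcDC2, Cxcl10 was at 0.855 and 0.851 as these per-cell means, and at 0.938 without other-lineage cells. In Treg, Cxcl10 was at 0.329 as a per-cell mean over the deeper cells. The causes were not tested.

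For the interferon gamma list, the members higher in all APCs were 8 at a minimum of 200 UMIs, 6 at 2-fold and 7 without macrophages, where the median was 0.33. In mono the median was 1.497 at 10 and 1.04 at 200 UMIs, with 6 members higher at 200 UMIs. In rcDC1, 10 members were higher at a minimum of 10 UMIs and 10 at 1 UMI in each library, 2 at 200 UMIs, where the median was 0.10, and 2 at 2-fold. In all T cells 2 members were higher at 2-fold, and 5 of the type 1 program. The median of the other chemokines in APCs was 0.33 at 10 UMIs and 0.24 at 1 UMI in each library. For the other receptors in T cells the median was -0.14 and -0.059 at these minimums, with 4 members higher at each, and 0 at 2-fold. Shares over all genes at these other minimums and at 2-fold are not given here. The counts at those settings therefore cannot be set beside a background, and a change in them is not a result about the lists.

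TMM and median-of-ratios factors kept every recomputed ratio within its interval. Alternatives on shared barcodes, on leaving out macrophages with mono, on Cxcl10 in all T cells and on the top Ifng cells were chosen after seeing the data. No paired analysis was possible because each chow has 1 RNA library. Depth limits the shares of cells with Cxcr3, since positive cells had a median of 1 UMI in all T cells and in rcDC1 of both libraries.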
